A study of Capra hircus with 6 samples.

Results

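The TGF-beta and BMP signaling genes were followed in goat intramuscular preadipocytes, which are precursors of the fat inside muscle, with and without silencing of LIPG. Members were the genes whose name in the deposited FPKM table was one of 49 names, sorted by role into ligands, proteins of latency and processing, receptors, SMADs, extracellular antagonists, intracellular antagonists and targets. The table held 46 of the 49 names among its 27271 genes, and GDF11, SKIL and ID2 were not analysed here. Of the 46 members, 33 had enough counts to be compared between the groups, and GDF1, a ligand, was the member with the smallest p.

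TGF-beta family ligands are secreted as dimers, and several of them stay bound to latency proteins in the matrix until they are released. A ligand brings together type I and type II receptor kinases at the cell surface, which phosphorylate receptor SMADs. These bind SMAD4, enter the nucleus and act on targets such as the ID genes. In fat precursors, TGF-beta is known for holding back adipocyte differentiation, while BMP ligands such as BMP4 are known for commitment to the fat lineage.

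Of the 6 libraries, 3 were from cells given control siRNA (NC groups, genotype WT) and 3 from cells in which siRNA silenced LIPG (Si-LIPG groups, genotype LIPG Knock down), and all 6 cultures were then kept for 48 h in induction medium with 50 μmol/L oleic acid. The cells were primary cells from the longissimus dorsi of 3-day-old Jianzhou goats, and no label says whether the libraries of a group came from separate animals, so that p-values measure the spread between these libraries. In a bulk library, fewer cells of a type and less RNA per cell cannot be told apart.

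Each library held between 36451898 and 52638817 reads, of which only 0.997% to 1.53% in the NC groups and 1.80% to 2.88% in the Si-LIPG groups were counted on genes (524776 to 1051230 reads). LIPG itself had at most 2 counts in any library, so that the labels could not be checked against it. At the fold change and unadjusted p thresholds given below, DESeq2 found 629 genes higher in Si-LIPG and 1064 lower. The paper reports nearly the same counts with the directions exchanged, more genes up than down in Si-LIPG. Whether the sample labels or the paper's contrast are reversed was not tested. All directions given here follow the sample titles. The libraries were built with dUTP marking of a cDNA strand, and the strand setting of the counting is not given in the sources used here. ND6, which lies on the other strand than the remaining mitochondrial protein genes, had 54.2 to 99.3 times the median counts per kb of the other 12 in the NC groups and 22.6 to 49.8 times in the Si-LIPG groups, without overlap. A count of a member can therefore not be assigned to its own transcript rather than to RNA from the opposite strand. The TMM factors were 0.601, 0.949 and 0.927 in NC 1, 2 and 3 and 1.06, 1.31 and 1.37 in Si-LIPG 1, 2 and 3, and did not overlap either. Library 1 of each group stood apart from its replicates: the chi-square of counts per degree of freedom was 12.3 and 12.6 for NC 1 against the others and 4.46 between these, and 11.4 and 13.9 for Si-LIPG 1 against 4.17. Of the preadipocyte markers, ITGB1, NT5E, ENG and PDGFRA were counted in every library, DLK1 was at 0 in all of them, and the summed level of the 9 listed was 3424 to 4173 CPM in the NC groups and 3679 to 4162 CPM in the Si-LIPG groups. The 8 myogenic markers summed to 441 to 489.6 CPM and 416 to 519 CPM, with DES, MYH3, MYOD1 and CDH15 counted in every library. The 8 adipocyte markers summed to 16.2 to 41.4 CPM and 16.1 to 34.2 CPM, with LPL at 0 throughout. The 5 leukocyte markers reached at most 29.2 CPM, with PTPRC, CD3E and ITGAM at 0, and the 6 endothelial markers at most 7.20 CPM, with CDH5, KDR, TEK and CLDN5 at 0. The groups overlapped in each of these sums, but not in every marker. ITGB1, the marker of highest level, had means of 2147 CPM in NC and 2645 CPM in Si-LIPG, with every Si-LIPG library above. MYOD1 (20.9 and 38.6 CPM) and PAX7 (2.10 and 11.6 CPM, at most 22 counts) did likewise. ENG did the reverse (684 and 324 CPM). Of all tested genes, 15.2% had every Si-LIPG library above every NC library and 13.4% the reverse. The cell make-up was not tested.

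Levels were first compared between genes as FPKM, in which counts are divided by the length of the gene and by the reads that fell on genes. GDF1 had the highest level of all members in the NC groups, 429 ± 71.9 FPKM (SD, n = 3). FSTL1, a secreted follistatin-like protein, had the highest level in the Si-LIPG groups, 459 ± 115 FPKM (SD, n = 3). By mean FPKM over the 6 libraries, FSTL1 ranked 240 and GDF1 241 among all genes. LTBP2, FST and TGFBR2 followed with means of 109, 72.8 and 65.8 FPKM. Among the SMADs the highest was SMAD2 at 26.9 FPKM and among the targets TGFBI at 49.9 FPKM. At the other end, BMP2, BMP7 and GDF6 had 0 counts in every library, which allows up to 3 counts in each, BMP6 was counted once in all, and ACVR2B and NOG were counted 2 times each.

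**Figure D1:**
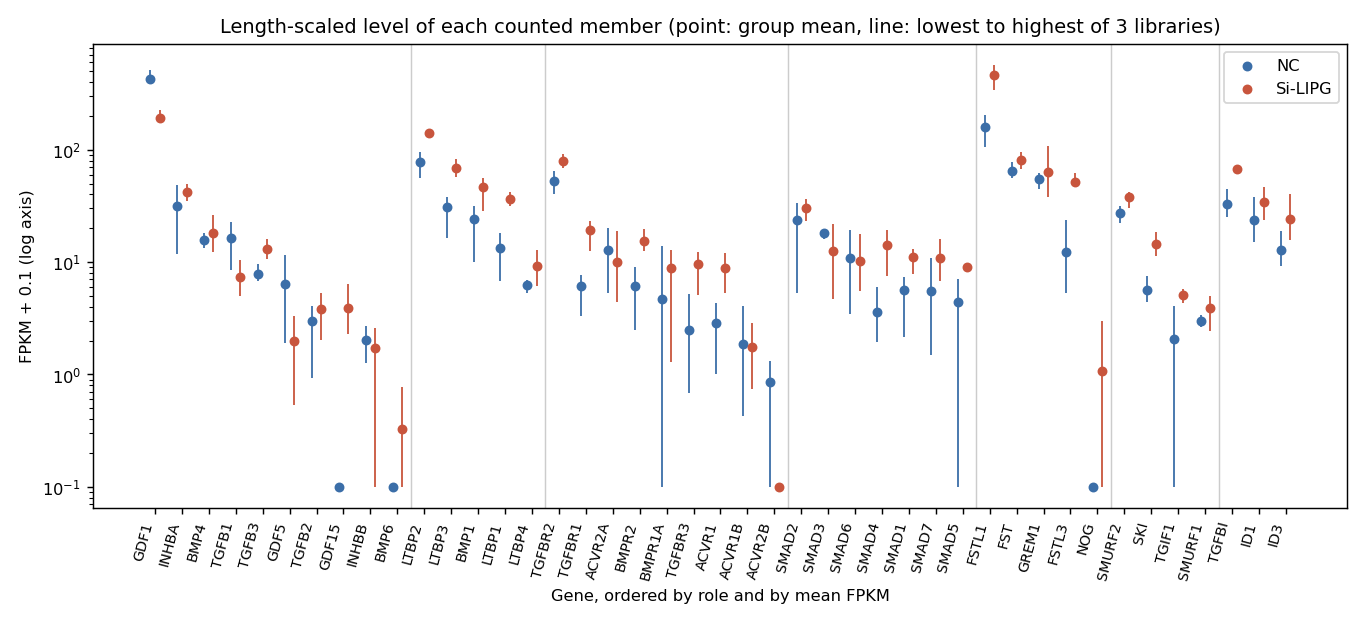
FPKM + 0.1 (log axis) of the 43 members with at least 1 count, ordered by role and by mean FPKM, with the group mean as a point and the lowest to highest of 3 libraries as a line (blue NC, red Si-LIPG). GDF1 leads the ligands in both groups, while the antagonist FSTL1 rises from 160 FPKM in NC to 459 FPKM in Si-LIPG. FPKM is not TMM-normalized, and after TMM normalization the ratio of FSTL1 between the group means was 1.94.

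Among the ligands, GDF1 (ENSCHIG00000026655), a family member known for its part in left-right patterning of the embryo, was lower in the Si-LIPG groups. Its counts were 774, 679 and 778 in NC 1, 2 and 3 and 563, 486 and 520 in Si-LIPG 1, 2 and 3, although the Si-LIPG libraries held more reads on genes. Every NC library was above every Si-LIPG library already in the raw counts. As CPM normalized by TMM, the values were 2510, 1223 and 1226 in the NC groups and 635, 396 and 380 in the Si-LIPG groups. NC 1 had the highest value by a wide margin, and the groups did not overlap. The log2 fold change, taken as Si-LIPG over NC throughout, was -1.81 for GDF1 (standard error 0.38, adjusted p = 0.0395 with edgeR's quasi-likelihood test). GDF1 ranked 21 by p among the 6574 genes tested. Of these genes, 6.51% had an adjusted p under 0.05, and GDF1 was the only one of the 33 tested members to have one. GDF1 is also in the study's list of top genes from these same libraries, so that its rank and its p are not independent of that list. The log2 fold change stayed between -2.11 and -1.40 when single libraries were left out. The adjusted p, however, was 0.0771 without NC 1, 0.0594 without NC 2, 0.240 without Si-LIPG 2 and 0.253 without Si-LIPG 3. The share of reads on genes, the TMM factor and the ND6 ratio split the libraries the same way as GDF1, and their part in the result was not tested.

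The size of the GDF1 difference depended on the scale. As CPM over all reads of a library, counted on a gene or not, GDF1 was at 14.7, 15.9 and 16.9 in the NC groups and at 11.7, 13.0 and 14.3 in the Si-LIPG groups. These ranges again did not overlap, but the Si-LIPG mean was 0.820 times the NC mean, against 0.285 times after TMM normalization. A two-sided exact permutation test of the CPM over all reads gave p = 0.1, and no smaller p can be had from 3 libraries against 3. On this scale only 1.17% of all tested genes had every NC library above every Si-LIPG library, and GDF1 was the only tested member that did. In edgeR the log2 fold change on this scale was -0.29 (adjusted p = 0.354), past neither threshold. The median log2 fold change of all tested genes on this scale was 1.58, so that a value above 0 can still lie below that of most genes. GDF1 took 46.7%, 28.1% and 29.7% of the reads counted on members in NC 1, 2 and 3 and 14.2%, 8.68% and 8.24% in Si-LIPG 1, 2 and 3.

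**Figure D2:**
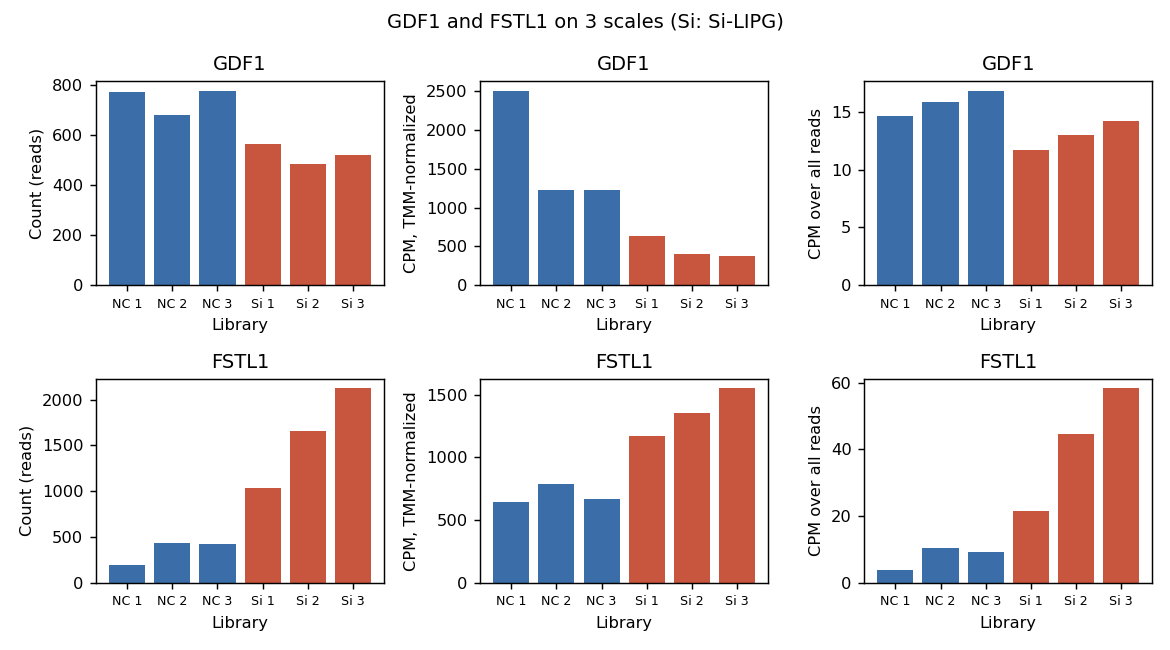
Raw counts, TMM-normalized CPM and CPM over all reads of GDF1 (top) and FSTL1 (bottom) in the 6 libraries, as bars from 0 (blue NC, red Si-LIPG). GDF1 is lower in all 3 Si-LIPG libraries on each scale, from 14.7 or more to 14.3 or less over all reads, and FSTL1 is higher in all 3 on each scale.

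On the goat assembly ARS1.2, as annotated by RefSeq, GDF1 overlaps UPF1, a helicase of nonsense-mediated decay, and lies within 1 kb of CERS1, a ceramide synthase. UPF1 had 50.4 to 75.6 CPM (TMM) in the NC groups and 67.2 to 107 CPM in the Si-LIPG groups, and a log2 fold change of 0.43 ± 0.37 (standard error; edgeR, adjusted p = 0.573). CERS1 had at most 8 counts in a library. The annotation table used here gives no strand, and the part of the neighbours in the GDF1 counts was not tested.

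Of the other ligands, 4 were tested by edgeR, and none of the 4 met the criterion used throughout, a fold change over 1.5 with a p under 0.05. The study used these thresholds, which are applied here to the p before adjustment. Of all tested genes, 7.83% met the criterion as higher and 12.9% as lower. INHBA, the subunit of activin A, had 32.4, 61.2 and 88.3 CPM (TMM) in NC 1, 2 and 3 and 66.6, 45.6 and 62.1 CPM in Si-LIPG 1, 2 and 3. The NC libraries enclosed the Si-LIPG libraries, and the log2 fold change was -0.10 (95% interval -0.99 to 0.79), a sign that turned with the scale. TGFB3 and TGFB2, ligands of the TGF-beta receptors, had log2 fold changes of 0.19 (95% interval -0.698 to 1.07) and -0.31 (95% interval -1.87 to 1.24). BMP4 had one of -0.395 (95% interval -1.36 to 0.57). TGFB1, the prototype of the family, was counted 11, 16 and 7 times in the NC groups and 5, 12 and 8 times in the Si-LIPG groups, too few for the edgeR test. Its TMM-normalized CPM did not overlap between the groups (11.03 to 35.7 against 5.64 to 9.78). Over all reads of a library its CPM overlapped (0.152 to 0.376 against 0.104 to 0.321), as did its FPKM. DESeq2, which was run on all counted genes, gave a log2 fold change of -1.795 (adjusted p = 0.212). GDF5, known from joint and cartilage formation, was counted 14, 8 and 3 times and then 4, 1 and 8 times (DESeq2 log2 fold change -2.47, adjusted p = 0.169). Both met the criterion with DESeq2, as GDF5 did in edgeR without a filter on low counts. INHBB, a further activin subunit, had between 0 and 8 counts in a library.

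GDF15, a stress-induced ligand, was counted in no NC library and 5, 2 and 3 times in Si-LIPG 1, 2 and 3. All 3 Si-LIPG libraries were above the NC libraries. A count of 0 allows up to 3 counts in a library, so that these counts do not bound the difference. With 10 reads in all it was too low to be tested by edgeR after the filter, and it met the criterion in limma on FPKM (adjusted p of 0.186 and 0.210 at pseudocounts of 1 and 0.1).

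Proteins of latency and processing were all tested. All 5 had a log2 fold change above 0 after TMM normalization, as did 58.4% of all tested genes. Of the 5, 1 was higher at the criterion, where 7.83% of all tested genes were. LTBP1, which tethers the latent TGF-beta complex to the matrix, rose. It had 51.9, 90.1 and 78.8 CPM in NC 1, 2 and 3 and 141, 156 and 123 CPM in Si-LIPG 1, 2 and 3. All Si-LIPG libraries were above all NC libraries, with a log2 fold change of 0.90 ± 0.34 (standard error), an unadjusted p of 0.0183 and an adjusted p of 0.132 in edgeR. Without Si-LIPG 1 or Si-LIPG 2 the unadjusted p of edgeR was 0.0561 and 0.0853. LTBP3, a second latency protein of TGF-beta, had 110, 160 and 167 CPM and then 218, 208 and 248 CPM, without overlap (log2 fold change 0.61, 95% interval -0.0486 to 1.27). LTBP2, a microfibril protein of the same family that does not carry TGF-beta, had 535, 585 and 503 CPM in the NC groups and 702, 686 and 624 CPM in the Si-LIPG groups. These libraries also did not overlap, with a log2 fold change of 0.31 (95% interval -0.31 to 0.93). BMP1, a protease of procollagens that can also release LTBP1, and LTBP4 had log2 fold changes of 0.41 and 0.0250 with overlapping libraries.

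**Figure D3:**
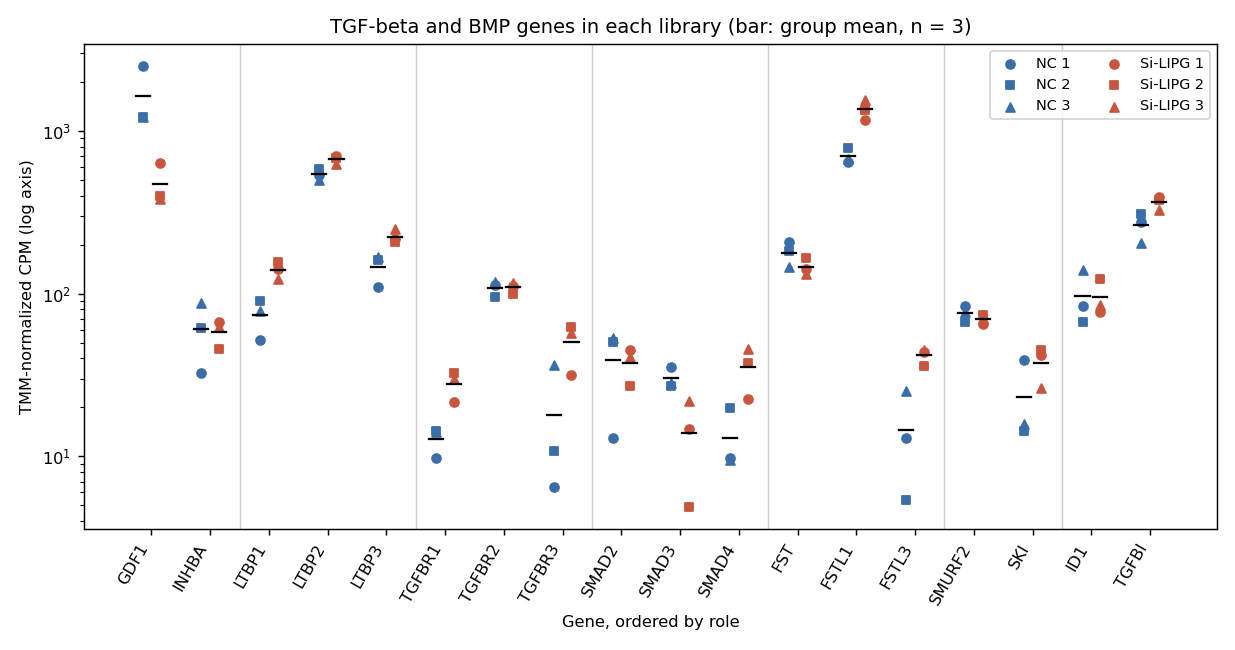
TMM-normalized CPM (log axis) of 18 members in each of the 6 libraries, ordered by role (blue NC, red Si-LIPG, marker shape for the replicate number, black bar for the group mean of 3 libraries). GDF1 is lower in all Si-LIPG libraries, LTBP1, SMAD4, FSTL1 and FSTL3 are higher in all of them, and TGFBR2, SMURF2 and ID1 overlap.

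Of 9 receptors, 7 were tested and 1 was higher at the criterion, where 7.83% of all tested genes were. TGFBR3, or betaglycan, the co-receptor that presents TGF-beta to its receptors, rose from 6.48, 10.8 and 36.2 CPM in NC 1, 2 and 3 to 31.6, 62.7 and 57.0 CPM in Si-LIPG 1, 2 and 3. NC 3 lay above Si-LIPG 1, so the groups overlapped. The log2 fold change was 1.40 ± 0.59 (standard error), with an unadjusted p of 0.0319 and an adjusted p of 0.184 in edgeR, and it was 2.46 without NC 3. The edgeR p was 0.0694 without NC 1, 0.109 without NC 2, 0.108 without Si-LIPG 2 and 0.0791 without Si-LIPG 3.

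The signaling receptors of TGF-beta differed from each other in their values. TGFBR2, the type II receptor, had 113, 95.5 and 118 CPM in the NC groups and 112, 99.4 and 117 CPM in the Si-LIPG groups. The means nearly coincided (109 ± 12 and 109 ± 8.97 CPM, SD, n = 3), with a 95% interval of the log2 fold change from -0.67 to 0.68. TGFBR1, the type I receptor, had 9.73, 14.4 and 14.2 CPM and then 21.4, 32.6 and 29.9 CPM. Its libraries did not overlap, yet the counts were low (3 to 41 reads) and the log2 fold change of 1.10 had a 95% interval from -0.22 to 2.42. The BMP and activin receptors BMPR2 and ACVR1 also had every Si-LIPG library above every NC library, with log2 fold changes of 0.80 and 1.10 that did not pass the criterion (unadjusted p of 0.138 and 0.0560 in edgeR). ACVR2A, an activin type II receptor, had the only log2 fold change below 0 among the tested receptors (-1.07, 95% interval -2.72 to 0.58), and BMPR1A was counted 0, 16 and 0 times in NC 1, 2 and 3. ACVR1B had 1 to 14 counts in a library and was not tested.

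All 7 SMADs were tested. SMAD4, the partner shared by all receptor SMADs, rose from 9.73, 19.8 and 9.46 CPM in NC 1, 2 and 3 to 22.6, 37.5 and 46.0 CPM in Si-LIPG 1, 2 and 3. The groups did not overlap, but the counts were only 3 to 63 reads. The log2 fold change was 1.42 ± 0.61 (standard error), with an unadjusted p of 0.0346 and an adjusted p of 0.193 in edgeR. The edgeR p was 0.0530 without NC 1, 0.0982 without NC 3, 0.0974 without Si-LIPG 2 and 0.160 without Si-LIPG 3, and DESeq2 gave an unadjusted p of 0.0512 with all libraries.

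SMAD3, a receptor SMAD of TGF-beta and activin, had 35.7, 27.0 and 28.4 CPM in the NC groups and 14.7, 4.89 and 21.9 CPM in the Si-LIPG groups. Every NC library was above every Si-LIPG library, and the log2 fold change was -1.11 (95% interval -2.54 to 0.32), which did not pass the criterion and was 0.39 when scaled to all reads. SMAD2, which acts on the same branch, had 13.0, 50.4 and 53.6 CPM and then 45.1, 26.9 and 40.9 CPM, with overlap (log2 fold change -0.11, 95% interval -1.21 to 0.99, and 1.15 when scaled to all reads). The BMP receptor SMADs SMAD1 and SMAD5 had log2 fold changes of 0.45 and 0.56 with overlapping libraries. The inhibitory SMADs SMAD6 and SMAD7 had -0.73 (95% interval -2.44 to 0.98) and 0.41 (95% interval -1.02 to 1.85), intervals that span both directions.

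Among the extracellular antagonists, 4 of 5 were tested and 2 were higher at the criterion, where 7.83% of all tested genes were. FSTL1, a glycoprotein of the follistatin family described as binding BMP ligands, had 642, 791 and 671 CPM in NC 1, 2 and 3 and 1172, 1354 and 1551 CPM in Si-LIPG 1, 2 and 3. The groups were clearly separate, with means of 701 ± 78.8 and 1359 ± 189 CPM (SD, n = 3), a ratio of 1.94. Its log2 fold change was 0.95 ± 0.31 (standard error), with an unadjusted p of 0.00728 and an adjusted p of 0.0766 in edgeR, and DESeq2 gave an adjusted p of 0.00685. FSTL1 met the criterion without any one of the libraries, with an edgeR p between 0.00591 and 0.0488, and after GDF1 it was the member with the smallest p. As for GDF1, the groups of libraries also differed without overlap in the share of reads on genes and in the ND6 ratio, whose part was not tested.

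FSTL3, a secreted inhibitor of activin and myostatin, rose from 13.0, 5.40 and 25.2 CPM to 44.0, 35.9 and 45.3 CPM. The libraries did not overlap. FSTL3 had a log2 fold change of 1.48 ± 0.60 (standard error), with an unadjusted p of 0.0258 and an adjusted p of 0.161 in edgeR. It became 2.28 without NC 3. The edgeR p was 0.0857 without NC 2, 0.0711 without Si-LIPG 1 and 0.0692 without Si-LIPG 3. FST itself, follistatin, the classical activin inhibitor, had 208, 184 and 145 CPM in the NC groups and 141, 166 and 132 CPM in the Si-LIPG groups. These values overlapped, with a log2 fold change of -0.28 (95% interval -0.94 to 0.38) that turned to 1.22 when scaled to all reads. GREM1, a BMP antagonist, had a log2 fold change of -0.44 (95% interval -1.58 to 0.71).

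Of the intracellular antagonists, SMURF2, a ubiquitin ligase that marks SMADs and receptors for degradation, had 84.3, 66.7 and 77.2 CPM in NC 1, 2 and 3 and 65.4, 74.1 and 70.9 CPM in Si-LIPG 1, 2 and 3. These ranges overlapped, and the log2 fold change of -0.11 had a 95% interval from -0.85 to 0.63 and turned to 1.37 when scaled to all reads. SKI, a corepressor that binds SMADs, had 38.9, 14.4 and 15.8 CPM and then 41.7, 44.8 and 26.3 CPM. NC 1 lay among the Si-LIPG libraries, and the log2 fold change was 0.78 (95% interval -0.43 to 1.98). SMURF1 and TGIF1 had at most 15 counts in a library and were not tested.

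None of the 3 tested targets passed the criterion in edgeR after TMM normalization. ID1, an inhibitor of basic helix-loop-helix factors that BMP signaling induces, had 84.3, 66.7 and 140 CPM in the NC groups and 76.7, 123 and 85.5 CPM in the Si-LIPG groups. The ranges overlapped almost fully, with a log2 fold change of -0.04 (95% interval -0.84 to 0.76) that turned to 1.39 when scaled to all reads. ID3, of the same family, had a log2 fold change of 0.34 (95% interval -0.72 to 1.40). TGFBI, a matrix protein induced by TGF-beta, had 276, 308 and 205 CPM in NC 1, 2 and 3 and 390, 377 and 325 CPM in Si-LIPG 1, 2 and 3. All Si-LIPG libraries were above all NC libraries, but the log2 fold change of 0.47 (95% interval -0.17 to 1.12) did not pass the criterion. TGFBI passed it among genes with 10 counts in each sample (log2 fold change 0.74), with library sizes alone (1.06), scaled to all reads (1.91) and in limma at both pseudocounts (1.05 and 1.07).

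Over the 33 tested members, 5 were higher at the criterion (LTBP1, TGFBR3, SMAD4, FSTL1 and FSTL3) and 1 was lower (GDF1). This was 15.2% and 3.03% of the members, where 7.83% of all tested genes were higher and 12.9% lower. Every Si-LIPG library was above every NC library for 10 members and below for 2, against 15.2% and 13.4% of all tested genes. The median log2 fold change was 0.34 for the members and 0.16 for all tested genes, and 63.6% of the members and 58.4% of all tested genes were above 0. The rises met the unadjusted criterion only: their adjusted p from edgeR lay between 0.0766 and 0.193. With single libraries left out, 3 members were higher without Si-LIPG 1, 2 without Si-LIPG 2 and 2 without Si-LIPG 3, where 6.85%, 3.49% and 3.59% of all tested genes were higher. Without NC 3, TGFB1 and GDF5 were tested and lower as well as GDF1, which made 3, where 12.1% of all tested genes were lower.

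**Figure D4:**
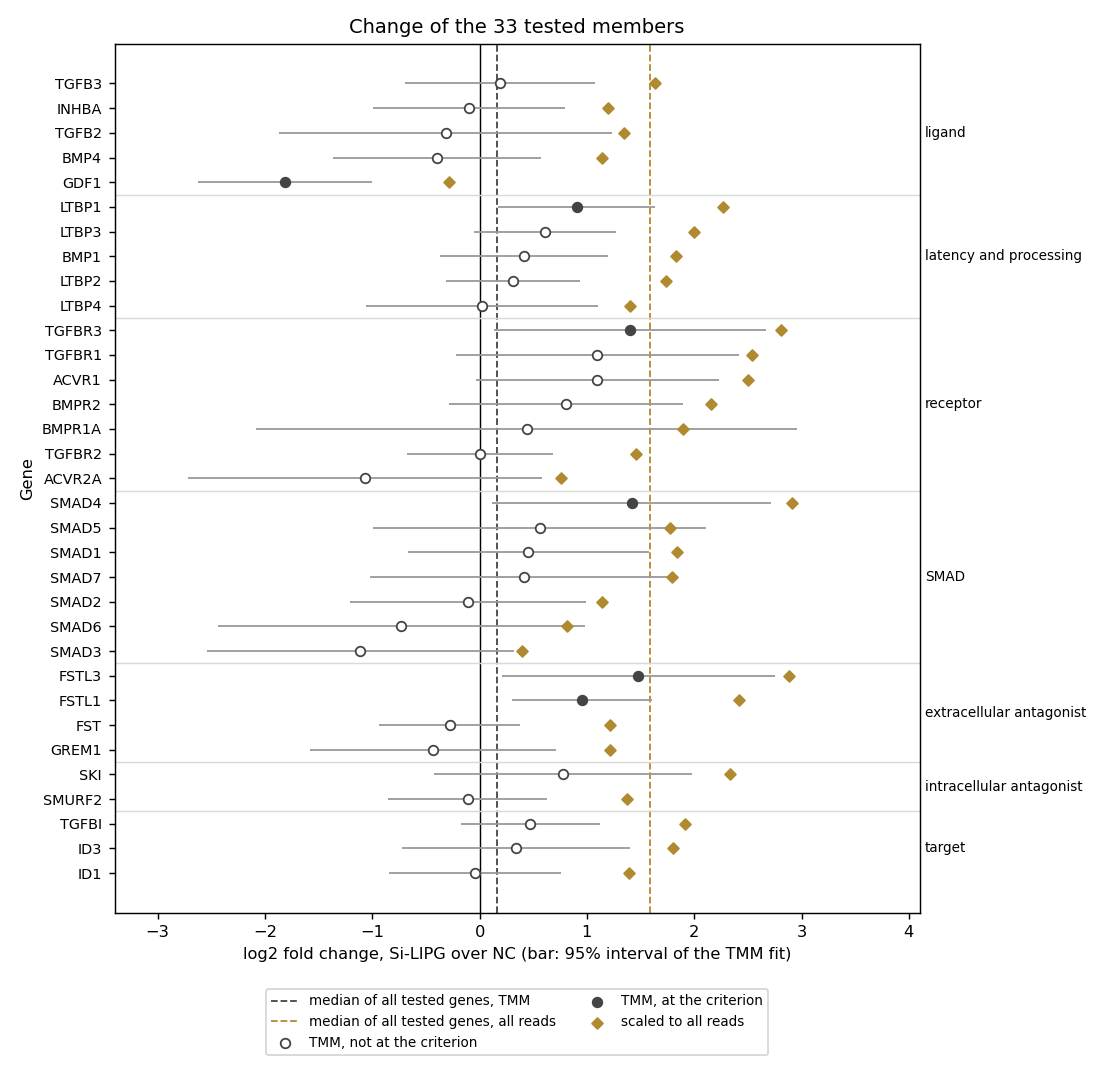
Log2 ratio of Si-LIPG to NC for the 33 tested members by role, after TMM normalization (circles with 95% intervals, filled where the criterion was met) and scaled to all reads (diamonds), with the medians of all tested genes as dashed lines at 0.16 and 1.58. GDF1 is the lowest member on both scales, at -1.81 and -0.29.

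The direction of a member depended on what the counts were scaled to. Scaled to all reads, the median log2 fold change of all tested genes was 1.58, and 32 of the 33 members were above 0, with GDF1 the exception. At the criterion 21 members were then higher and 0 lower (edgeR, where 46.1% of all tested genes were higher and 0.0304% lower). An adjusted p under 0.05 was reached by 8 of the 33 members and by 11.4% of all tested genes. On that scale every Si-LIPG library was above every NC library for 23 of the 33 members and for 51.9% of all tested genes. These scales differ by a factor per library, which moves all genes nearly alike, so that distances from the median of all tested genes are nearly fixed across them. For GDF1 this distance was -1.97 after TMM normalization, -1.87 scaled to all reads and -1.89 with library sizes alone. FSTL1 lay above it by 0.79, 0.83 and 0.81, FSTL3 by 1.32, 1.30 and 1.31, and SMAD4 by 1.26, 1.33 and 1.27 on the same scales. After TMM normalization 19 of the 33 members lay above the median.

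Gene length varied with the change. Across the 33 tested members, which share libraries, Spearman's rho between gene length and log2 fold change was 0.425, and across all tested genes it was 0.121. The members were longer than the tested genes as a whole, with a median length of 3045 bp against 2305 bp. The part of length in these changes was not tested.

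Other genes of the pathway came from a list of its known components. Of 110 such genes in the files, 61 were tested, of which 8 were higher and 5 lower at the criterion. Of all tested genes, 7.83% were higher and 12.9% lower. The median log2 fold change of the 61 was 0.16, as for all tested genes. INHA, the inhibin alpha subunit, which pairs with the beta subunits that otherwise form activins, was the 1 gene of these with an adjusted p under 0.05. It fell from 340, 238 and 211 CPM in NC 1, 2 and 3 to 115, 77.4 and 53.3 CPM in Si-LIPG 1, 2 and 3. The groups did not overlap. On the log2 scale the change was -1.68 ± 0.36 (standard error; edgeR, adjusted p = 0.0395), and -0.26 when scaled to all reads. INHA lies within 1 kb of OBSL1 in the ARS1.2 annotation.

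Among the receptors of this list, ENG, or endoglin, a co-receptor of TGF-beta and BMP ligands and also a preadipocyte marker, was lower with 684 ± 279 CPM in NC and 324 ± 88.6 CPM in Si-LIPG (SD, n = 3). Of the antagonists, CHRD, or chordin, which binds BMP ligands, was lower at low counts (32.2 ± 28.3 and 6.77 ± 4.02 CPM, SD, n = 3). Of the SMAD regulators, STUB1, a ubiquitin ligase, was lower (log2 fold change -1.38), and STRAP, a binding partner of SMAD7 (log2 fold change 1.40), and USP15, a deubiquitinase (log2 fold change 1.80), were higher. STUB1 overlaps JMJD8 in the annotation. When scaled to all reads, STUB1 and ENG had log2 fold changes above 0 (0.12 and 0.44), but below the median of 1.58 of all tested genes on that scale. MAP3K7, the kinase TAK1 of the branch that does not use SMADs, was higher by 1.20 on the log2 scale.

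Of the activation proteins, ITGAV, the integrin subunit that releases latent TGF-beta, rose from 77.3 ± 20.4 to 176 ± 72.3 CPM (SD, n = 3), with overlap between the groups. The matrix proteoglycans BGN and DCN, which bind TGF-beta, had log2 fold changes of 0.77 and 0.87, both at the criterion. Among the targets, CCN2, a classical TGF-beta target, rose from 292, 286 and 364 CPM in NC 1, 2 and 3 to 539, 513 and 626 CPM in Si-LIPG 1, 2 and 3 without overlap (log2 fold change 0.83, unadjusted p of 0.0140 and adjusted p of 0.113 in edgeR). TSC22D1 was higher by 1.88 on the log2 scale and CDKN2B, a cell cycle inhibitor, was lower (-1.03). Scaled to all reads CDKN2B was at 0.53, below the median of 1.58 of all tested genes. Leaving out single libraries, INHA, STRAP and STUB1 met the criterion in all 6 edgeR fits. ITGAV lost it without Si-LIPG 2 (unadjusted p of 0.0552), ENG without Si-LIPG 2 or 3 (0.0538 and 0.0617), CCN2 without NC 2 or Si-LIPG 3 (0.0531 and 0.0723) and CHRD without NC 1 or Si-LIPG 3 (0.223 and 0.0627). CDKN2B lost it without NC 1, Si-LIPG 2 or Si-LIPG 3 (0.146, 0.130 and 0.0658) and TSC22D1 without NC 2, Si-LIPG 2 or Si-LIPG 3 (0.0819, 0.136 and 0.0702). BGN, DCN, USP15 and MAP3K7 each lost it without any of 4 libraries, with an unadjusted p of up to 0.111, 0.216, 0.124 and 0.123. The adjusted p of these genes other than INHA lay above 0.05 with all libraries.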

How the data were processed

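RNA-seq counts and FPKM values of 3 NC and 3 Si-LIPG libraries were analysed, grouped by the sample titles. The counts deposited by the authors are reads per Ensembl gene, in a file for each library. A further 5 rows hold reads on no gene (between 97.1% and 99.0% of all reads), and these entered no test and no library size except where scaling to all reads is named. The authors deposited FPKM values of the same genes in 1 table, which gave the gene names and, from their ratio to the counts, the gene lengths. The submitters' processing notes name fastp, HISAT2, SAMtools and HTSeq. Their versions, the genome build and the strand setting are not given in the sources used here.

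The main test was that of edgeR 4.0.16 in R 4.3.3: genes were kept by filterByExpr (6574 genes), library sizes were summed over these and normalized by TMM and compared by the quasi-likelihood test without covariates, with Benjamini-Hochberg adjustment over all tested genes. DESeq2 1.42.0 and limma 3.58.1 were alternatives. The procedures were tested on simulated data. Replicate numbers were not taken to pair the samples: deviations from the group means correlated at 0.210, 0.0639 and 0.105 for numbers 1, 2 and 3.

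The members, lists and roles were chosen with earlier results of these data known, and GDF1 is in a gene list the study drew from these samples. Values per library were given for GDF1, members at the criterion and the 2 members of highest mean FPKM in each role. Of the other pathway genes, the 12 with the smallest p at the criterion were to be named, and DCN was added after its values were seen. Limits for a count of 0 cover counting error only. Replicates of a group differed by more than sampling noise in a chi-square test of counts. Neighbouring genes came from RefSeq (ARS1.2), where all 46 members were found once. No sequences are shown.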

Additional observations from a re-analysis of the deposited data

How the results depend on the processing

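The direction of GDF1 and of LTBP1, TGFBR3, SMAD4, FSTL1 and FSTL3 was the same in every alternative that gave a value, while the counts of members at the criterion moved with the scale and the tool. Where the counts changed, the cause was not tested, except that fewer samples or other genes entered some fits by construction. Of the members, 13 were higher with library sizes alone, 21 scaled to all reads, 11 and 10 with limma on log2(FPKM + 1) and log2(FPKM + 0.1), against 5. Over all tested genes these shares were 24.2%, 46.1%, 16.1% and 14.1%, against 7.83%. Lower were 0 scaled to all reads, 3 with DESeq2 and 2 without a filter, against 1. These fits tested 33, 43 and 43 members, and 0.0304%, 7.17% and 7.06% of all tested genes were lower in them, against 12.9%. An adjusted p under 0.05 was had by 8 scaled to all reads, 2 with DESeq2, 3 where each sample needed 10 counts of a gene, and 0 with limma at either pseudocount (12 and 11 with an unadjusted p under 0.05), against 1. In the first 3 of these fits, 33, 43 and 17 members were tested. There 11.4%, 4.01% and 25.9% of all tested genes had such an adjusted p, against 6.51%. Of the other pathway genes, 20, 32, 19 and 18 were higher with library sizes alone, all reads and the 2 limma fits, against 8, and 2, 0, 2 and 2 were lower, against 5, with 3 lower at 10 counts. The median of the tested members was 0.93 with library sizes alone, 1.78 scaled to all reads, 0.19 with DESeq2, and 0.74 and 0.79 with limma, against 0.34. Over all genes the criterion gave 515 higher and 846 lower genes, which became 1588 and 395 with library sizes alone.

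Leaving out each library gave 2 to 5 members higher, 1 to 3 lower and 0 to 2 with an adjusted p under 0.05 in edgeR. It was 0 without NC 1, NC 2, Si-LIPG 2 or Si-LIPG 3, where 5, 6, 3 and 3 members had an unadjusted p under 0.05, and over all genes 0 had an adjusted p under 0.05 as well. Other pathway genes ranged from 2 to 8 higher and 2 to 6 lower, and the members' median from 0.13 to 0.32. In these fits 3.49% to 9.87% of all tested genes were higher and 8.95% to 13.3% lower. With the replicate block 2 members, GDF1 and FSTL1, had an adjusted p under 0.05 (925 against 428 over all genes). At the criterion 7 members were higher and 1 lower, where 10.4% and 13.2% of all tested genes were. NC 2 correlated better with Si-LIPG 3 (0.0890) than with its own number (0.0639).

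Signs turned for 7 of the 18 members with values per library, none of them at the criterion in the TMM fit. The scalings shifted all genes: the median log2 fold change of all tested genes was 0.74 with library sizes alone, 1.58 scaled to all reads, and 0.74 and 0.97 in limma, and each value in the next sentence is below the median of its fit, so that its sign says nothing about the member. In log2 fold change with library sizes alone, scaled to all reads, and in limma at pseudocounts 1 and 0.1, INHBA was 0.42, 1.20, 0.60 and 0.62, SMAD2 0.38, 1.15, 0.69 and 0.75, FST 0.34, 1.22, 0.31 and 0.31, SMURF2 0.50, 1.37, 0.46 and 0.48, and ID1 0.55, 1.39, 0.58 and 0.60. Where each sample needed 10 counts INHBA was 0.13, FST 0.0045, SMURF2 0.17 and ID1 0.23. SMAD3 was 0.39 scaled to all reads, ID1 was 0.036 without a filter, and TGFBR2 was -0.039 with DESeq2 size factors. Leaving out libraries, INHBA ranged from -0.39 to 0.27, TGFBR2 from -0.082 to 0.081, SMAD2 from -0.49 to 0.16 and ID1 from -0.26 to 0.35. Of 263 values of the 18 members under alternatives, 184 kept direction and side of the criterion and 38 changed sign. With the direction kept, 25 came to pass the criterion and 16 no longer did. Among the 38, those of FST, SMURF2 and ID1 scaled to all reads also came to pass it. Members with few reads had wide intervals, such as SMAD4 with 3 to 63 reads a library (0.12 to 2.72).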
